A study of Saccharomyces cerevisiae with 6 samples.

Results

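The transcripts described here are those of 7 Saccharomyces cerevisiae genes whose enzymes make threonine, asparagine and proline, chosen by their identifiers from the 7127 annotated features of a table of read counts. They are THR1 (YHR025W) and THR4 (YCR053W) for threonine, ASN1 (YPR145W) and ASN2 (YGR124W) for asparagine, and PRO1 (YDR300C), PRO2 (YOR323C) and PRO3 (YER023W) for proline. Poly(A)-enriched RNA was sequenced from 6 samples, 3 wild type and 3 snf2Δ, to ask which transcripts change when the chromatin remodeler Swi-Snf lacks Snf2, its ATPase. Both genotypes were grown without rapamycin in the rich medium YPD at 30 °C and harvested in log phase. The labels number the samples without saying whether each came from its own culture, and p-values therefore reflect only how these samples varied.

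Wild type was HHY221, a W303 MATa strain that carries TOR1-1, fpr1Δ::loxP-LEU2-loxP and rpl13a::RPL13A-2×FKBP12-loxP, and the snf2Δ strain of the study carries snf2Δ::natMX6 in addition. It is a parent for anchor-away experiments, in which rapamycin removes a tagged protein from the nucleus. The missing gene FPR1 bears on the pathway studied here, because its product, the prolyl isomerase FKBP12, is known in yeast to bind the aspartate kinase Hom3 and to affect its feedback inhibition by threonine. Both genotypes lacked it.

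In yeast, aspartate is phosphorylated and reduced to homoserine, which either enters methionine synthesis or is phosphorylated by the homoserine kinase Thr1 and turned into threonine by the threonine synthase Thr4. Asn1 and Asn2 are isozymes of asparagine synthetase, which amidates aspartate with nitrogen from glutamine. Proline is made from glutamate by the γ-glutamyl kinase Pro1, the γ-glutamyl phosphate reductase Pro2 and the pyrroline-5-carboxylate reductase Pro3, and many genes of amino acid synthesis are bound by the activator Gcn4 at sites with the core TGACTC.

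In snf2Δ cells THR1, PRO2 and PRO3 rose, by 1.65-, 1.33- and 1.38-fold, and ASN1 fell 2.08-fold. THR4, ASN2 and PRO1, with fitted ratios of 1.31, 1.13 and 1.03, did not pass the test. The isozyme pair for asparagine therefore changed places by level, with ASN1 above ASN2 in all 3 wild-type libraries and below it in all 3 snf2Δ libraries. The route to threonine included larger rises before its members, at HOM3 and HOM2, the genes of the first steps from aspartate.

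The stretches of sequence around each TGACTC in the 500 bases before the start codons are shown because the members differ in whether and where they carry these letters. Each is 30 bases of the RefSeq R64 genome, the release on which sacCer3 is based, read 5′ to 3′ on the strand of the gene, with the matching letters in capitals (GAGTCA is TGACTC on the other strand). All sequences here and below are those of this reference, and the sequence of the W303 strain studied was not examined.
THR1 chrVIII:159325-159354 (plus strand): aaatttgtgcaaGAGTCAtcatctcgaaaa
THR4 chrIII:216270-216299 (plus strand): caagagaaacgcTGACTCactacttatggt
THR4 chrIII:216506-216535 (plus strand): gtgcgaacaaaaGAGTCAttacaacgagga
ASN1 chrXVI:822381-822410 (plus strand): tcatgtaacattTGACTCattctgtaaact
ASN2 chrVII:739735-739764 (plus strand): ttttcttagcatTGACTCatggcaagattt
PRO2 chrXV:923012-923041 (minus strand): cgttgggtcaatGAGTCAaaaaatgaaaaa
PRO3 chrV:200870-200899 (plus strand): gtgtaatatcctGAGTCActccttaaacct

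The letters TGACTC, sought on both strands, were present before 6 of the 7 genes, against 758 of 6006 windows of the same length before all annotated start codons (12.6%). PRO1 had no match in its window. The 7-letter form TGACTCA, which contains the shorter one, stood before 5 members, all but THR1 and PRO1, against 240 of 6006 windows (4%). The matches began 101 bases before the start codon of THR1, 124 before PRO2, 179 and 415 before THR4, 194 before PRO3, 197 before ASN2 and 227 before ASN1. The farther match of THR4, its only one with the 7-letter form, lay within the neighbouring gene RSC6, whose end is 251 bases from THR4. A match is only a description of the letters, and ASN1, which fell, held one as did THR1, PRO2 and PRO3, which rose.

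The isozyme genes of asparagine synthetase are shown side by side because the result for asparagine depends on telling their reads apart. The lines give the first 90 bases of each coding sequence, with the 18 bases that differ in capitals.
ASN1 chrXVI:822620-822709 (plus strand): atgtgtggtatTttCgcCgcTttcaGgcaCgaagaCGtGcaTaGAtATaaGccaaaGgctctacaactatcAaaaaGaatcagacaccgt
ASN2 chrVII:739944-740033 (plus strand): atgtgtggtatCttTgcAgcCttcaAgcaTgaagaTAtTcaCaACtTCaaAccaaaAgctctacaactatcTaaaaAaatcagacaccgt

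Both coding sequences are 1719 bases long. Over their whole alignment of 1722 columns, 1394 bases were identical (81.0%), 322 differed and 6 columns held a gap. The longest shared run was 83 bases, and 9 of the 1645 stretches of 75 bases (the length of 1 read) in ASN1 also occurred in ASN2. Reads from those stretches may be dropped or split between the genes, whereas nearly all others differ between them. A search with BLAST against all annotated genes found no copy of the other 5 members.

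The libraries held 4134546 to 6708036 counts, and a floor of 3 counts, which covers counting error only, corresponded to 0.481 to 0.745 CPM (read counts relative to the library size, scaled by TMM). SNF2 had 363, 298 and 365 counts in wild type and 6, 9 and 7 in snf2Δ, and FPR1 had 0 in all 6 libraries. Marker genes of a cells, the mating type in the study's list of strains, summed to 1469 to 2415 CPM in wild type and 1517 to 1709 CPM in snf2Δ (7 genes, none at 0 in all libraries). Those of alpha cells summed to 39.8 to 51.3 and 50.4 to 52.3 CPM (4 genes), nearly all from SAG1, with 0 to 3 counts of MF(ALPHA)1 in a library. Among the 7 a-cell genes, MFA1 (log2 fold change −0.99) and MFA2 (−0.76) fell, ASG7 (0.74) rose and 4 did not pass. Over all genes tested 34.4% passed. The first principal component (76.5% of the variance) parted the genotypes, and on the second (9.98%) wild-type replicate 3, the deepest library, was distant from replicates 1 and 2. Results that rest on this library are given without it as well.

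Of 5641 genes tested by edgeR's quasi-likelihood test with Benjamini-Hochberg adjustment over all of them, 1942 (34.4%) had an adjusted p under 0.05, of which 939 (16.6%) rose and 1003 (17.8%) fell. Of the members, 4 of 7 passed (57.1%), and 3 of these rose. All 7 were tested. Without wild-type replicate 3, 5 members passed, while the count over all genes went from 1942 to 2495. The median log2 fold change was 0.39 over the members and −0.02 over all genes tested. The levels of the genotypes did not overlap for THR1, THR4, ASN1, PRO2 and PRO3, which is 5 of 7, against 46.5% of all genes tested. With so few members and so high a share of all genes, these counts describe the members and were not tested against the rest. None of the 7 had a log2 fold change larger than 2 in either direction. As other synthesis pathways, those of arginine, lysine and histidine alone were compared. Of their genes, 9 of 9 rose for arginine (median log2 fold change 2.55), 4 of 8 for lysine (0.64) and 5 of 7 for histidine (0.59). None of those genes fell.

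**Figure D1:**
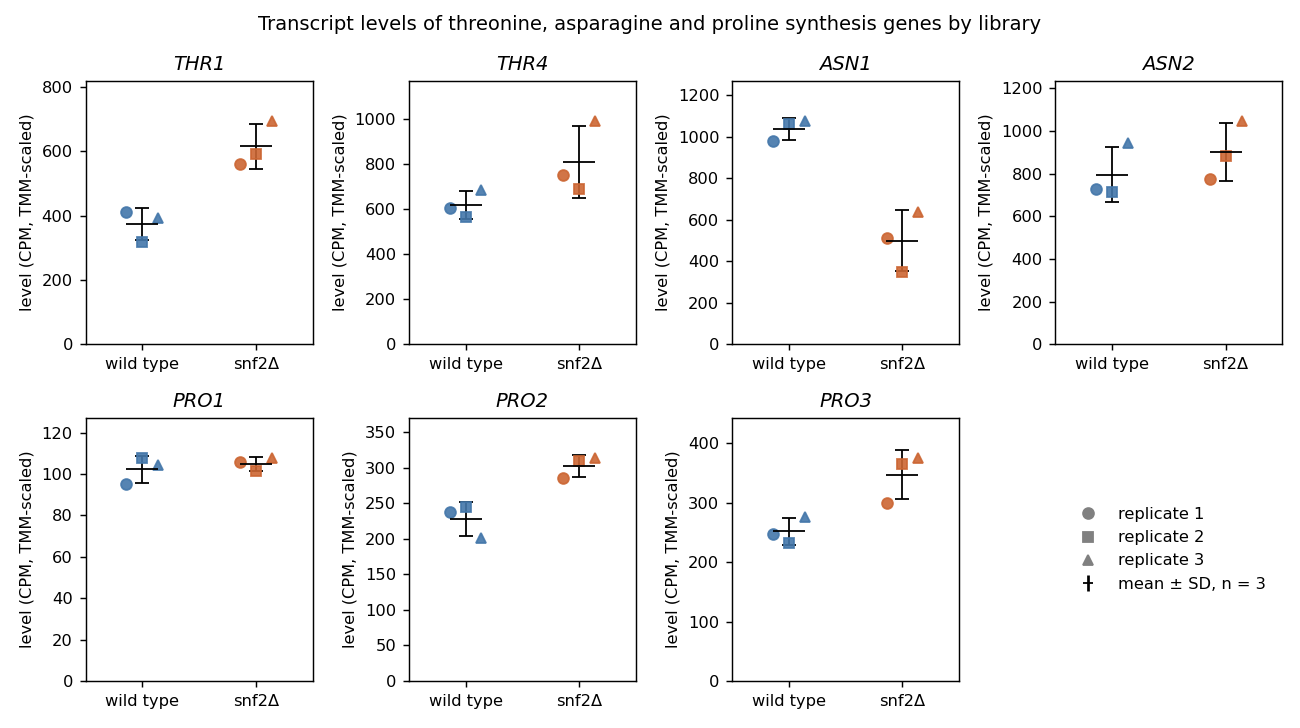
Transcript level (CPM, scaled by TMM, axes from 0) of the 7 members in each of the 6 libraries, with wild type in blue, snf2Δ in orange, a marker for each replicate number and lines for the mean ± SD (n = 3). The levels of the genotypes are separate for THR1, THR4, ASN1, PRO2 and PRO3 and overlap for ASN2 and PRO1, and snf2Δ replicate 3 is the highest snf2Δ library for all 7 genes.

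For threonine, THR1, the homoserine kinase gene (chromosome VIII, 159438 to 160511, plus strand, a single exon), stood at 411, 317 and 392 CPM in wild type and at 559.8, 592 and 694 CPM in snf2Δ. Every snf2Δ library lay above every wild-type library. The mean rose from 373 ± 49.9 to 615 ± 69.7 CPM (SD, n = 3 each), a log2 fold change of 0.72 ± 0.147 (SE, edgeR adjusted p = 0.0014). The call held in 18 of 18 alternative analyses, with log2 fold changes of 0.50 to 0.80. The low end came from the corrections for GC content and length, and THR1 has the highest GC content of the members (48.1%, against 39.3% for PRO1, the lowest).

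THR4, the threonine synthase gene that follows THR1 in the route (chromosome III, 216697 to 218241, plus strand, a single exon), had 604, 565 and 685 CPM in wild type and 751, 688 and 991 CPM in snf2Δ. The groups were separate but touched, since the lowest snf2Δ library and the highest wild-type library were 688 and 685 CPM. The means were 618 ± 61.1 and 810.0 ± 160.0 CPM (SD, n = 3 each), and the log2 fold change of 0.39 ± 0.159 did not pass (edgeR adjusted p = 0.0689). Its call depended on the analysis. It passed in 7 of 18 alternatives, among them the analysis without wild-type replicate 3 (0.47, adjusted p = 0.0223) and the DESeq2 Wald test (0.41, adjusted p = 0.0463), and over all alternatives the adjusted p ran from 0.00381 to 0.32. The log2 fold change was smallest, at 0.22 (adjusted p = 0.32), without snf2Δ replicate 3, the highest library.

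Within a library, the ratio of THR4 to THR1 counts needs no scaling between libraries, but it keeps any effect of GC content or length on single genes. Its log2 was 0.56, 0.83 and 0.81 in wild type and 0.42, 0.22 and 0.52 in snf2Δ. All snf2Δ values were below all wild-type values, with a difference of means of −0.35. The exact two-sided permutation test gave p = 0.1, the smallest that 3 against 3 samples can give (0.125 adjusted over the 5 pairs of members compared), so the design could not reach 0.05. With the GC and length correction, THR1 and THR4 had similar log2 fold changes, 0.50 and 0.52 (edgeR adjusted p = 0.00808 and 0.0175). The ratio itself was not computed with that correction.

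For asparagine, ASN1 (chromosome XVI, 822620 to 824338, plus strand, a single exon) was the only member that fell. It had 978, 1060.3 and 1075 CPM in wild type and 512, 346 and 639 CPM in snf2Δ. The lowest wild-type library was above the highest snf2Δ library by a wide margin, while the snf2Δ libraries differed more among themselves than those of wild type. The mean went from 1038 ± 52.1 to 499 ± 147 CPM (SD, n = 3 each), and the log2 fold change was −1.06 ± 0.187 (SE, edgeR adjusted p = 0.000432). All 17 alternatives that kept the isozymes apart called the fall. Leaving out snf2Δ replicate 2, the lowest library, gave −0.85, and leaving out snf2Δ replicate 3, the highest of that genotype, gave −1.28. In these bulk libraries a lower level in every cell cannot be told apart from fewer cells that carry the transcript.

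ASN2 (chromosome VII, 739944 to 741662, plus strand, a single exon) encodes the second isozyme. It had 729.9, 714 and 943 CPM in wild type and 775, 883 and 1047 CPM in snf2Δ. Wild-type replicate 3 exceeded 2 of the 3 snf2Δ libraries. The means were 796 ± 128 and 902 ± 137 CPM, and the log2 fold change of 0.18 ± 0.161 did not pass (edgeR adjusted p = 0.414). It passed in 0 of 17 alternatives, which gave 0.06 to 0.32 on the log2 scale. Wild-type replicate 3 had the highest level in its group for ASN2, ASN1, THR4 and PRO3, and without it the adjusted p of ASN2 was still above 0.05.

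**Figure D2:**
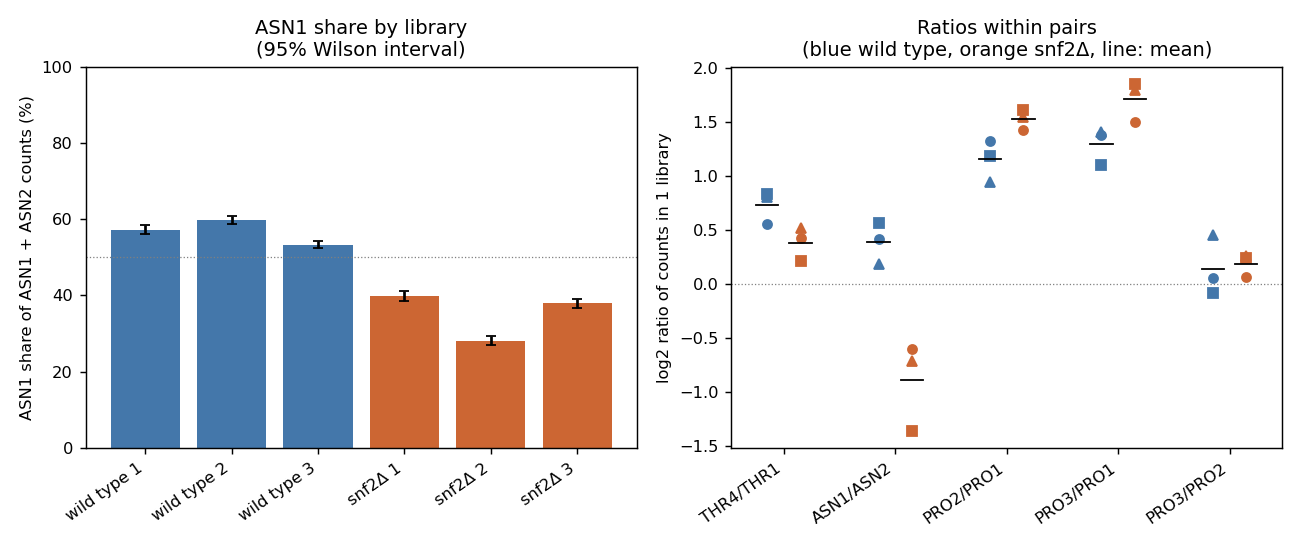
Left, ASN1 as a percentage of the ASN1 and ASN2 counts of each library (bars from 0, error bars 95% Wilson intervals, dotted line at equal counts). Right, log2 ratio of counts within each library for the 5 pairs of members, with wild type in blue, snf2Δ in orange, replicate numbers as circle, square and triangle, and lines at the means. The ASN1 share is above the dotted line in the wild-type libraries (53.3% to 59.8%) and below it in the snf2Δ libraries (28.1% to 39.8%).

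Taking both isozymes together, ASN1 contributed 57.3%, 59.8% and 53.3% of the ASN1 and ASN2 counts in wild type, but 39.8%, 28.1% and 37.9% in snf2Δ. The 95% Wilson intervals of single libraries, which cover counting error only, spanned from 52.4% to 60.8% in wild type and from 27.0% to 41.1% in snf2Δ. The counting error of a library was thus much smaller than the gap between the genotypes. The mean share was 56.8 ± 3.27% in wild type and 35.3 ± 6.27% in snf2Δ (SD, n = 3 each), a difference of −21.5 percentage points (exact permutation test, two-sided, p = 0.1, the smallest possible). On the log2 scale the mean ratio of ASN1 to ASN2 moved from 0.39 ± 0.192 to −0.89 ± 0.408, a difference of −1.28 (p = 0.1 by the same exact test, 0.125 adjusted over 5 pairs).

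The summed level of the isozymes moved less than ASN1 alone. It went from 1833 ± 163 to 1401 ± 249 CPM (SD, n = 3 each). In this sum every snf2Δ library was below every wild-type library, by a narrow margin. Tested as 1 feature in the table, the sum did not pass (log2 fold change −0.39 ± 0.163, edgeR adjusted p = 0.0772). Other scalings and left-out libraries were not tried for the sum.

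For proline, PRO1 (chromosome IV, 1061505 to 1062791, minus strand, a single exon), whose product catalyses the first and feedback-inhibited step, had 95.2, 108 and 104 CPM in wild type and 106, 101 and 108 CPM in snf2Δ. The libraries of both genotypes were interleaved. The means were 102 ± 6.46 and 105 ± 3.38 CPM (SD, n = 3 each), with a log2 fold change of 0.04 ± 0.129 that did not pass (edgeR adjusted p = 0.852). It had the narrowest standard error of the members and passed in 0 of 18 alternatives.

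PRO2 (chromosome XV, 921535 to 922905, minus strand, a single exon) had 238, 245 and 201 CPM in wild type and 286, 310.0 and 314 CPM in snf2Δ. All snf2Δ libraries were above the wild-type libraries, of which replicate 3 was the lowest. The mean rose from 228 ± 23.7 to 303 ± 15.4 CPM (SD, n = 3 each), with a log2 fold change of 0.41 ± 0.132 (edgeR adjusted p = 0.025). The call was lost without wild-type replicate 1 (adjusted p = 0.0641), snf2Δ replicate 2 (0.0839) or snf2Δ replicate 3 (0.0735), and held in the 15 other alternatives.

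PRO3 (chromosome V, 201076 to 201936, plus strand, a single exon), which encodes the enzyme of the last step, had 248, 232 and 276 CPM in wild type and 299.8, 366 and 375 CPM in snf2Δ. The groups did not overlap. The mean rose from 252 ± 22.6 to 347 ± 41.2 CPM (SD, n = 3 each), a log2 fold change of 0.46 ± 0.139 (edgeR adjusted p = 0.0176). The call was lost with the GC and length correction (0.31, adjusted p = 0.0664) and without wild-type replicate 1 (0.069), wild-type replicate 2 (0.0777), snf2Δ replicate 2 (0.0757) or snf2Δ replicate 3 (0.0721), and held in 13 of 18 alternatives.

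The proline genes were also compared with one another within each library. The log2 ratio of PRO2 to PRO1 was 1.32, 1.19 and 0.95 in wild type and 1.43, 1.61 and 1.54 in snf2Δ, a difference of means of 0.37. For PRO3 to PRO1 it was 1.38, 1.11 and 1.41 in wild type and 1.498, 1.85 and 1.80 in snf2Δ, a difference of 0.42. In both pairs every snf2Δ value exceeded every wild-type value, with p = 0.1 in the exact permutation test (0.125 adjusted over 5 pairs), the smallest it allows. The ratio of PRO3 to PRO2 had means of 0.14 ± 0.28 and 0.19 ± 0.103 (SD, n = 3 each), the genotypes overlapped, and the difference of 0.04 had p = 0.9 in the same exact test. These ratios were not corrected for GC content or length. With that correction the log2 fold changes were 0.11 for PRO1, 0.50 for PRO2 and 0.31 for PRO3, so PRO3 was closer to PRO1 and below PRO2.

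**Figure D3:**
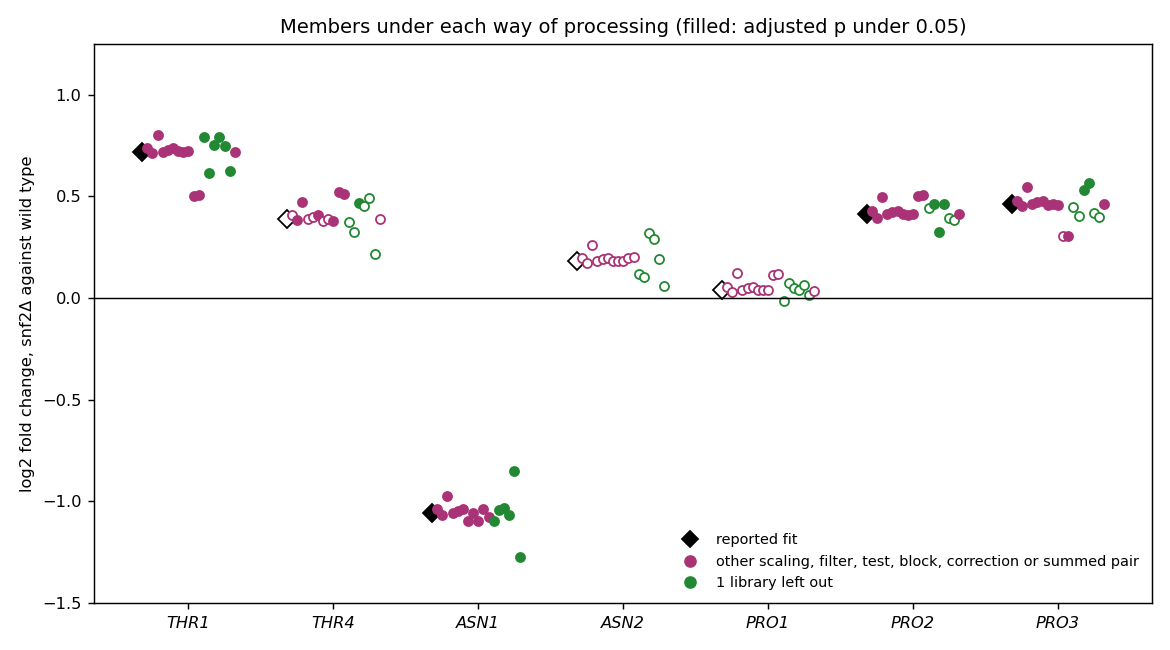
Log2 fold change (snf2Δ against wild type) of each member in the reported analysis (black diamond), in other ways of scaling, filtering, testing or correcting (purple) and with 1 library left out (green), filled where the adjusted p is under 0.05. ASN1 lies between −1.28 and −0.85 and THR1 between 0.50 and 0.80 with all symbols filled, THR4, PRO2 and PRO3 hold filled and open symbols, and ASN2 and PRO1 hold open ones.

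Levels divided by coding length, in CPM per kb, allowed the members to be ordered within a genotype. In wild type the order was ASN1 (604 ± 30.3), ASN2 (463 ± 74.3), THR4 (400.1 ± 39.6), THR1 (348 ± 46.4), PRO3 (293 ± 26.2), PRO2 (166 ± 17.3) and PRO1 (79.5 ± 5.02, SD, n = 3 each). ASN1 stood apart from ASN2, PRO3 from PRO2 and PRO2 from PRO1, while the ranges of the other neighbours overlapped. In snf2Δ THR1 came first (573 ± 64.9), followed by ASN2 (525 ± 79.5), THR4 (524 ± 104), PRO3 (403 ± 47.8), ASN1 (290.4 ± 85.7), PRO2 (221 ± 11.3) and PRO1 (81.6 ± 2.63). There the ranges were separate between THR4 and PRO3 and between PRO2 and PRO1 alone. ASN1 thus went from the first to the fifth place by mean per length, with a range in snf2Δ that overlapped those of both neighbours.

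The steps before homoserine, written as a list of 5 genes, held 4 that rose and none that fell (16.6% and 17.8% of all genes tested), with a median log2 fold change of 0.89. HOM2, the aspartate semialdehyde dehydrogenase gene, had 521, 476 and 586 CPM in wild type and 1319.6, 1378 and 1652 CPM in snf2Δ, a log2 fold change of 1.46 ± 0.153 (edgeR adjusted p = 2.46e-06). HOM3, the aspartate kinase gene, had 264.5, 233 and 307 CPM in wild type and 632, 585 and 815 CPM in snf2Δ (1.34 ± 0.160, edgeR adjusted p = 1.03e-05). For both genes the lowest snf2Δ library was far above the highest wild-type library. AAT2, the cytosolic aspartate aminotransferase gene, rose by 0.89 ± 0.147 on the log2 scale. HOM6, the homoserine dehydrogenase gene at the branch to methionine and threonine, rose by 0.58 ± 0.181 (edgeR adjusted p = 0.0213), with overlapping genotypes, and lost its call in 4 of the 6 analyses that left out a library, those without wild-type replicate 1, wild-type replicate 2, snf2Δ replicate 2 and snf2Δ replicate 3 (adjusted p of 0.0784 to 0.102). AAT1, the mitochondrial aminotransferase gene, did not pass (0.48 ± 0.187, edgeR adjusted p = 0.056, and 0.004 without wild-type replicate 3). Its call depended on the analysis in other ways too. Among others, it passed with upper quartile scaling (0.0272), a replicate block (0.0168) or the GC and length correction (0.0399), and without snf2Δ replicate 2 (0.0177).

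Genes that use threonine rose in 3 of 3 cases, with separate genotypes in each (over all genes tested, 16.6% rose and 46.5% were separate). GLY1, the threonine aldolase that makes glycine, had 408, 370.2 and 463 CPM in wild type and 783, 839 and 1013 CPM in snf2Δ (log2 fold change 1.08 ± 0.15, edgeR adjusted p = 4.35e-05). ILV1, the threonine deaminase at the entry to isoleucine, rose by 0.79 ± 0.156 on the log2 scale and CHA1, a deaminase of serine and threonine, by 0.64 ± 0.132.

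**Figure D4:**
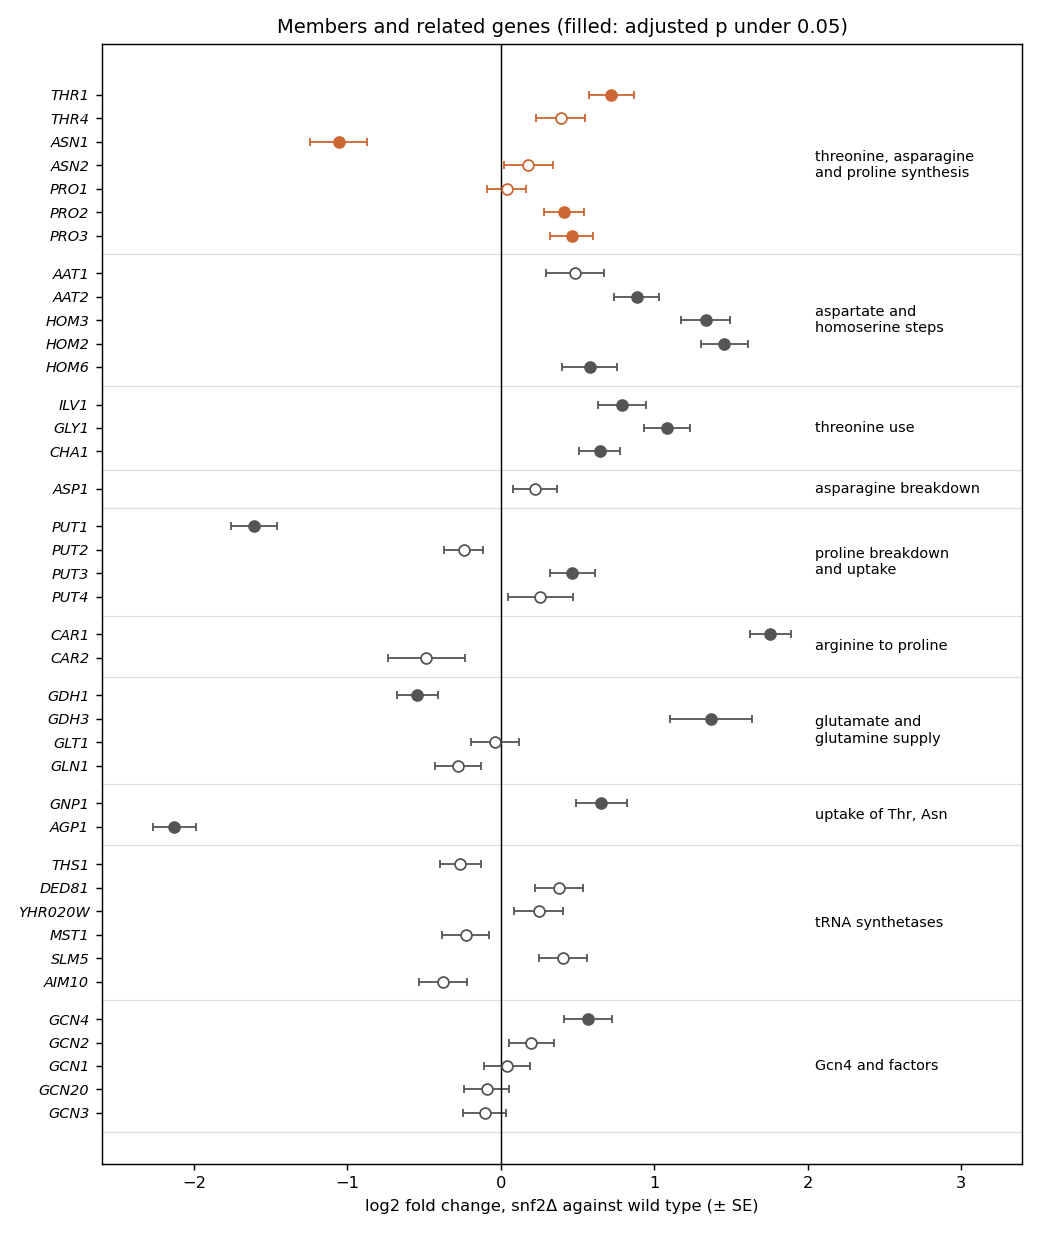
Log2 fold change (snf2Δ against wild type, bars ± SE) of the 7 members in orange and of the 32 related genes tested in grey, grouped by list, filled where the adjusted p is under 0.05. HOM2 (1.46), HOM3 (1.34), CAR1 (1.76) and GDH3 (1.37) lie far to the right, AGP1 (−2.13), PUT1 (−1.61) and ASN1 (−1.06) to the left, and the tRNA synthetases around 0.

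Of asparagine breakdown, ASP1, the cytosolic asparaginase gene, was tested and did not pass (log2 fold change 0.22 ± 0.145, edgeR adjusted p = 0.251, and 0.0457 without wild-type replicate 3). The 4 copies of ASP3, a secreted asparaginase, had 0 counts in all 6 libraries. Reads that match several copies may be dropped in counting, so no level is given for them.

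The genes of proline breakdown and uptake moved in both directions. PUT1, the proline oxidase gene of the first step of breakdown, had 107, 118 and 106 CPM in wild type and 38.0, 39.2 and 31.1 CPM in snf2Δ. The genotypes were far apart, and the log2 fold change was −1.61 ± 0.148 (edgeR adjusted p = 6.45e-07). PUT2, the next enzyme of that route, did not pass (−0.24 ± 0.128). PUT3, the activator of PUT1 and PUT2, rose by 0.47 ± 0.147 (edgeR adjusted p = 0.0227), and its call was lost with total-count scaling (0.0566) and without wild-type replicate 1 (0.0641), snf2Δ replicate 1 (0.0875) or snf2Δ replicate 3 (0.0746). The proline permease gene PUT4 did not pass (0.26 ± 0.212).

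Arginine can be turned into proline through arginase and ornithine aminotransferase. CAR1, the arginase gene, had 74.95, 77.3 and 79.5 CPM in wild type and 235, 287 and 262 CPM in snf2Δ. It rose by 1.76 ± 0.135 on the log2 scale (edgeR adjusted p = 8.71e-08). CAR2, the aminotransferase gene, did not pass, with a log2 fold change of −0.49 ± 0.249 (edgeR adjusted p = 0.145) at 11.6 to 16.6 CPM by genotype mean, and passed as a fall without wild-type replicate 3 (−0.70, adjusted p = 0.0211) and with the GC and length correction (−0.80, adjusted p = 0.0257).

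Glutamate is the start of proline synthesis, and glutamine the nitrogen donor for asparagine. GDH1, the main NADP-dependent glutamate dehydrogenase gene, had 764, 699 and 709 CPM in wild type and 461, 504 and 523 CPM in snf2Δ, and fell by 0.55 ± 0.132 on the log2 scale (edgeR adjusted p = 0.00488). Its paralog GDH3 had 9.70, 4.69 and 4.81 CPM in wild type and 16.3, 16.8 and 15.7 CPM in snf2Δ, and rose by 1.37 ± 0.267 (edgeR adjusted p = 0.000975). These paralogs thus moved in opposite directions at very different levels, and reads shared between them were not examined here. GLT1, the glutamate synthase gene, had a log2 fold change of −0.04 ± 0.156, and GLN1, the glutamine synthetase gene, one of −0.28 ± 0.15. Neither passed, though GLN1 passed without wild-type replicate 3 (−0.39, adjusted p = 0.0169).

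The permease genes for threonine and asparagine also went in opposite directions. AGP1, a broad amino acid permease, had 269.9, 274 and 283 CPM in wild type and 54.5, 71.3 and 62.9 CPM in snf2Δ, and its log2 fold change was −2.13 ± 0.142 (edgeR adjusted p = 1.76e-08). GNP1, a permease for glutamine that also takes up threonine and asparagine, rose from 340.2 ± 54.4 to 536 ± 104 CPM (SD, n = 3 each), a log2 fold change of 0.66 ± 0.167 (edgeR adjusted p = 0.00657).

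None of the 6 tRNA synthetase genes for these amino acids passed, against 34.4% of all genes tested, and their median log2 fold change was 0.01. The values ran from −0.38 for AIM10, the mitochondrial enzyme for proline, to 0.40 for SLM5, the mitochondrial enzyme for asparagine. The cytosolic enzymes for threonine (THS1, −0.26), asparagine (DED81, 0.38) and proline (YHR020W, 0.25) lay between them, as did MST1, the mitochondrial enzyme for threonine (−0.23). Without wild-type replicate 3, DED81, YHR020W and AIM10 passed (adjusted p of 0.00877, 0.0233 and 0.0232), and DED81 and SLM5 passed under some other scalings and corrections as well.

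GCN4, whose protein level is known to be set mainly by translation, had 1719.5, 1576 and 2019.8 CPM in wild type and 2606, 2729 and 2552 CPM in snf2Δ. The genotypes did not overlap, and the transcript rose by 0.57 ± 0.157 on the log2 scale (edgeR adjusted p = 0.0109). The call was lost without wild-type replicate 1 (0.0642) or 2 (0.0665). The genes of its upstream factors did not pass: GCN2, the kinase that senses uncharged tRNA, had 0.20 ± 0.145, and GCN1, GCN20 and GCN3 had log2 fold changes of 0.04, −0.09 and −0.11. Over all 9 lists, 36 genes were listed and 32 tested, of which 12 rose and 3 fell, beside 16.6% and 17.8% of all genes tested. Without wild-type replicate 3, 22 of the listed genes passed in place of 15, and 2495 genes in all in place of 1942.

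The genes whose profile over the 6 libraries was most like that of each member were found by the root mean square difference of centred log2 CPM. For THR1 they were CIS3 (0.0289) and YPL264C (0.0573), and for THR4 ARE1 (0.0538), also on chromosome III, and GDS1 (0.0602). For ASN1 they were SUT1 (0.123) and MCM1 (0.125), at a larger distance than for the other members. ASN2 was nearest to the asparaginase gene ASP1 (0.0362) and to BAT1 (0.0387), which encodes a branched-chain aminotransferase. For PRO1 they were SEN54 (0.034) and OTU1 (0.0373), for PRO2 LIP5 (0.0366) and BOS1 (0.0508), and for PRO3 NGR1 (0.0172) and DAD1 (0.0299). The members themselves were left out of the 5192 genes compared, so this measure did not show how alike the members were to one another.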

How the data were processed

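RNA was sequenced from 3 wild-type and 3 snf2Δ samples, grouped and numbered by the labels. The table the authors deposited holds raw, unnormalized whole read counts per feature, 1 column per library. The submitters' processing notes name bcl2fastq 2.18, STAR 2.7.3a, RSEM 1.3.0 and sacCer3. The strand setting of the counting was not given in the sources used here. No member overlaps another RefSeq R64 gene, but overlap with the 1080 features that matched no such gene was not checked. The labels describe hot phenol extraction, and the methods of the study a column kit, so the extraction is not settled. Of 7127 features, 6047 matched a RefSeq R64 gene, which gave names, positions and sequences.

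The counts were tested in R 4.3.3 with edgeR 4.0.16 (filterByExpr, TMM, quasi-likelihood F test, genotype as the only term), with Benjamini-Hochberg adjustment across all genes tested. A gene rose or fell where its adjusted p was under 0.05. The standard error is the size of the log2 fold change over the square root of F. Counts of genes omit SNF2. Ratios within a library used a pseudocount of 0.5 counts and an exact permutation test. Alternatives were DESeq2 size factors, total counts or upper quartile scaling, no filter or one of 10 CPM in 3 libraries, the DESeq2 1.42.0 Wald test, limma-voom (limma 3.58.1), the older quasi-likelihood fit, a replicate block, a GC and length correction, both together, ASN1 and ASN2 summed, and each library left out. The procedure was tested on simulated data. Copies were sought with BLAST 2.17.0.

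The genes named are the members, all genes of 9 related lists, SNF2, FPR1, markers of mating type, and for each member the pair of genes with a mean of at least 10 CPM and the closest profile. Neighbouring genes are named only for position. The members and lists were chosen with earlier results of these data known.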

Additional observations from a re-analysis of the deposited data

How the results depend on the processing

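ASN1 fell and THR1 rose in every alternative run with the isozymes apart (17 and 18), ASN2 passed in none of 17 and PRO1 in none of 18, and the calls of THR4, PRO2 and PRO3 changed as stated beside them. With 1 library left out, PRO1 had log2 fold changes of −0.013 (without wild-type replicate 1) to 0.072. With 1 library left out, 2 to 5 members passed: 2 without wild-type replicate 1, snf2Δ replicate 2 or snf2Δ replicate 3, against 4 with all libraries. The genes passing in all were 1469, 1415 and 1597 in those analyses, 2495 without wild-type replicate 3 and 1942 with all libraries. Without wild-type replicate 2, 1543 genes and 3 members passed. Without snf2Δ replicate 1, 1623 genes passed but the members stayed at 4, so the counts did not move together in every case. Fewer samples enter those analyses, and the cause was not tested. Requiring a log2 fold change above 2 in size left 159 genes and 0 members. Upper quartile scaling gave 1204 rises and 808 falls, against 939 and 1003 by TMM. The difference in the log2 ratio of PRO3 to PRO2 was −0.068 (without wild-type replicate 2) to 0.20 with 1 library left out. With a replicate block 2058 genes and 5 members passed (THR4 at 0.38, adjusted p = 0.0422), and 2180 genes with the GC and length correction as well. The correlations of same-numbered samples were 0.155, −0.04 and 0.126. Some samples correlated best with their own number and others did not, so these weak correlations do not settle whether the numbers pair the samples. Depth did not limit the members, which had at least 434 counts in every library, whereas 3 samples per genotype limited the exact permutation tests to p = 0.1.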
